A study of Mus musculus with 25 samples.

Results

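Barcodes rich in mitochondrial RNA were picked out of the 6 libraries made from Mlh3 testes. A barcode was a member when it held at least 200 unique molecular identifiers (UMIs, each counting 1 captured transcript) and more than 10% of them fell on genes named mt-, the genes of the mitochondrial genome. Of the 9618 Mlh3 barcodes with at least 200 UMIs, 6180 were members and are called rich here. The other 3438 came from the same 6 files and are called poor. The mitochondrial share chose the members, so the mt- genes are described without a test, and all comparisons use nuclear-encoded genes with the mt- genes removed. Nuclear copies of mitochondrial genes, which are not named mt-, were kept except in an alternative described below.

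Mitochondria keep a small genome of their own, which encodes their ribosomal RNAs, their transfer RNAs and a few subunits of the respiratory chain. All other mitochondrial proteins are encoded in the nucleus and imported. The mitochondrial part of a single-cell profile is often used as a sign of quality, because a cell that loses its cytoplasm can keep its mitochondria, but it also differs between healthy cell types. In the testis, germ cells in pachytene silence the X chromosome and switch on testis-specific versions of several energy-metabolism enzymes, while the somatic cells around them do neither.

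The libraries were made by Drop-seq, in which a cell and a barcoded bead share a droplet and transcripts are counted from their 3′ ends. All 6 came from whole testes of Mlh3-/- males, on a background that the labels give as B6;129, dissociated mechanically. MLH3 belongs to the mismatch repair family and acts in meiotic crossing over. Mlh3 1 was from an animal of 3 months 22 days, Mlh3 2 and 3 were both taken at 8 months 30 days, and Mlh3 4, 5 and 6 from animals of 2 months and 21, 22 and 23 days. Mlh3 1 and 2 were sequenced on a MiSeq and the others on a HiSeq. The tables analysed here held 48642 barcodes in 25 libraries. Beside Mlh3 these were 11 libraries of wild-type (WT) C57BL/6 testes, from 3 months 1 day to 9 months 14 days of age, of which WT 1 and 2 were dissociated enzymatically. There were 2 of Cul4a-/- testes (B6;129, 1 month and 18 or 21 days) and 2 of CNP eGFP BAC TRAP testes (C57BL/6, 2 months and 14 or 16 days). Sorted spermatogonia came, by enzymatic dissociation, from males of 7 days whose genotype the labels spell Pouf51-EGFP, and sorted primary spermatocytes, secondary spermatocytes and spermatids from wild-type males of 2 months 21 days. WT 4, used below, was from a male of 5 months 5 days and was dissociated mechanically.

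The Mlh3 transcript was counted at 30.3 to 95.4 CPM (UMIs per 1000000 nuclear UMIs) in the 6 Mlh3 libraries (median 51.3) and at 10.9 to 73.7 in the 11 WT libraries (median 48.0). Counts from 3′ ends do not check a deletion elsewhere in the gene, and the files give no position within it, so the genotype rests on the labels. Spermatid markers gave a partial check of the tissue, since only 2 of 12 round spermatid markers and 3 of 11 elongating spermatid markers had the 10 counts needed for testing. Over both arms and all Mlh3 libraries, the elongating list still took 0.0489% to 0.119% of nuclear UMIs. The round list took 0.0113% to 0.0419%, and these shares were not compared with WT.

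Rich barcodes were common in 5 of the 6 Mlh3 libraries. They made up 53.9%, 83.3%, 68.0%, 62.2% and 69.0% of the barcodes of Mlh3 2 to 6, and 5.11% (26 of 509) of those of Mlh3 1, which stood apart. In numbers, Mlh3 2 to 6 held 159, 662, 999, 1700 and 2634 rich barcodes, so Mlh3 6 alone gave more than any other library. Of all rich barcodes in the tables analysed here, 96.1% came from Mlh3 testes. The 11 WT libraries together held 127 of 25594 (0.496%), most of them in WT 2 and WT 4, and the median WT library had 0.0337%. The sorted spermatogonia of young males were the next highest at 20.5%. Each strain has libraries of its own and the labels do not date their preparation, so strain and preparation cannot be told apart.

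**Figure D1:**
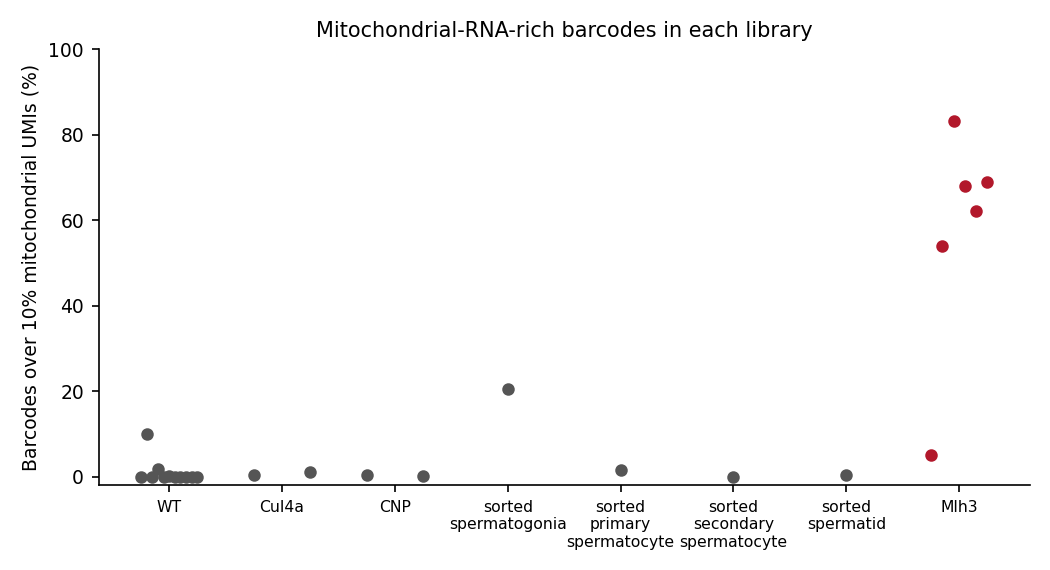
Percent of barcodes with at least 200 UMIs that had more than 10% mitochondrial UMIs, with 1 point for each of the 25 libraries, by group. Mlh3 2 to 6 lie between 53.9% and 83.3%, while Mlh3 1 lies at 5.11%, below the highest WT library and the sorted spermatogonia at 20.5%.

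The mitochondrial RNA was mostly the large ribosomal RNA in rich and poor barcodes alike. mt-Rnr2, which encodes the 16S ribosomal RNA, made up 68.7% to 92.0% of the mitochondrial UMIs of the rich barcodes and 51.6% to 80.3% of those of the poor. It took 12.1% to 23.1% of all UMIs in the rich barcodes, against 1.09% to 3.76% in the poor barcodes. mt-Rnr1, which encodes the 12S ribosomal RNA, made up 0.0497% of UMIs in the rich barcodes of Mlh3 1 and 0.636% to 2.37% in the other libraries. mt-Nd5, a subunit of respiratory complex I, lay between 0.220% and 0.372% in the rich barcodes and between 0.0407% and 0.184% in the poor ones. All 3 genes that mark the members were thus counted in every library.

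The rich barcodes were shallow apart from their mitochondrial RNA. Their median number of nuclear UMIs was 1154, 669, 1747, 405, 325 and 307 in Mlh3 1 to 6, against 1164, 1294, 2995, 1013, 512 and 1066 in the poor barcodes, lower in 6 of 6 libraries. Of the rich barcodes, 449 kept fewer than 200 nuclear UMIs. Summed per library, they held between 34311 nuclear UMIs in Mlh3 1 and 1283422 in Mlh3 3. Barcodes under 200 nuclear UMIs, 449 rich and 45 poor ones, were left out of all thinning. When each remaining barcode was thinned to 200 nuclear UMIs, the rich ones held on average 183.9 ± 3.88 genes and the poor ones 185.1 ± 2.42 (SD, n = 6 libraries). The difference of -1.12 genes did not pass an exact two-sided sign-flip permutation test (p = 0.219, n = 6, smallest possible p 0.0312). Without thinning, the mean was 322 to 1407 genes in the rich and 814 to 2219 in the poor barcodes.

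The value of 10% did not fall at a gap. The 675 barcodes just inside it, at 10% to 12% mitochondrial UMIs, had a median of 463 nuclear UMIs and 1.55% of these on X-linked genes. The 581 just outside, at 8% to 10%, had 542 nuclear UMIs and 1.80% on X-linked genes. The largest steps in the X-linked and Sertoli shares lay lower down. In barcodes with at most 2% mitochondrial UMIs, the X-linked share had a median of 0.104% over 4 libraries. It was 1.04% over 6 libraries at 2% to 5%, 1.46% at 5% to 10% and 1.42% at 10% to 20%. Mlh3 2 had 3 barcodes in the lowest bin, and its X-linked share fell from 1.99% at 2% to 5% to 1.28% at 5% to 10%. Between these bins the share also fell in Mlh3 1 (1.65% to 1.51%) and Mlh3 5 (1.875% to 1.39%), and it rose in Mlh3 3, 4 and 6. Markers of Sertoli cells, the somatic cells that nurse germ cells inside the tubules, went from a median of 0.0195% of nuclear UMIs in the lowest bin to 0.244%, 0.314%, 0.381%, 0.454% and 0.420% in the bins up to 5%, 10%, 20%, 40% and 100%. From the bin up to 5% to that up to 10%, the Sertoli share fell in Mlh3 2 and 5 and rose in Mlh3 1, 3, 4 and 6. Heat shock genes behaved otherwise, with median shares of 1.07%, 1.03% and 1.14% in the bins up to 10% and of 1.14%, 1.27% and 1.70% above it (the last over 3 libraries). Depth fell along the same bins, from a median of 2020 to 295 nuclear UMIs.

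**Figure D2:**
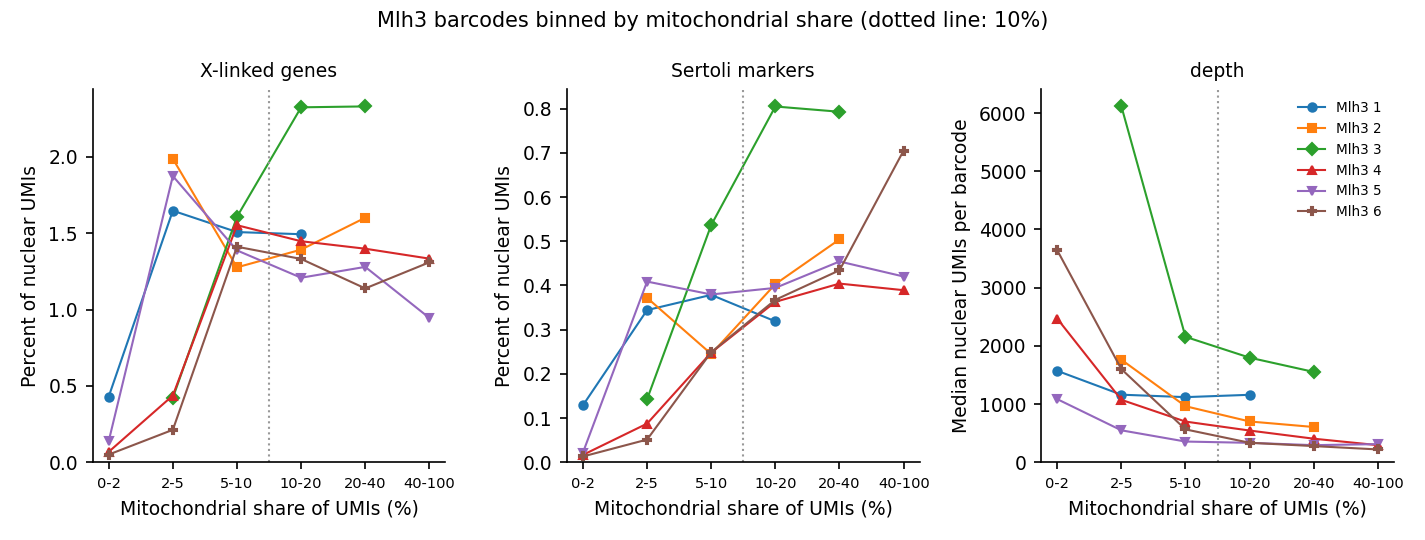
Barcodes of each Mlh3 library binned by mitochondrial share, with the X-linked percent of nuclear UMIs, the Sertoli marker percent of nuclear UMIs and the median nuclear UMIs per barcode (1 line per library, bins of at least 10 barcodes). The X-linked and Sertoli shares rise to the left of the dotted line at 10%, where the median over libraries of the X-linked share already reaches 1.46%.

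To ask what the rich barcodes expressed, nuclear UMIs were summed per library and arm and the arms were compared within libraries. Sertoli, Leydig, macrophage and telocyte markers were higher in the rich barcodes, and genes of pachytene spermatocytes, of the meiotic divisions and of testis-specific energy metabolism were lower. With edgeR's quasi-likelihood test and the library as block, 2434 of 15869 genes were higher in the rich barcodes (15.3%) and 2207 were lower (13.9%) at an adjusted p under 0.05, 29.2% in either direction. Of these, 513 and 688 moved the same way in all 6 libraries. Without Mlh3 6, 3 and 4 the calls numbered 2090, 2676 and 2796, and with no replicate block, which ignores that both arms share a library, 59. In such sums, more cells of a type and more RNA per cell cannot be told apart. The split of the calls depended on the scaling. Without TMM factors it was 2864 higher and 1124 lower, and by DESeq2 2214 and 1094 of 13100, with the median of all genes at 0.17 and 0.19 on the log2 scale against -0.03.

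Few genes were called between shallow barcodes. Among barcodes with 200 to 1000 nuclear UMIs in both arms, which 4 libraries could supply (Mlh3 2, 4, 5 and 6), 2 genes were higher (0.0166%) and 1 was lower (0.00831%) of 12027 by edgeR (463 and 141 at an unadjusted p under 0.05). With every barcode of at least 200 nuclear UMIs thinned to 200, 1 gene was higher and 1 lower of 11107 (0.009% each by edgeR, with 369 and 260 unadjusted). At 1000 to 2500 nuclear UMIs in both arms, 29 were higher (0.231%) and 70 lower (0.557%) of 12564. Over 1000 nuclear UMIs, 2142 were higher (14.1%) and 2717 lower (17.9%) of 15149. The barcodes over 1000 numbered 961 in the rich arm, 662 of them from Mlh3 3, and 1670 in the poor arm, where they held 81.7% to 100% of the arm's nuclear UMIs per library. Without Mlh3 3 this comparison gave 1335 higher (9.28%) and 2205 lower (15.3%) of 14379 genes. Over 1000 with all libraries, the poor barcodes were still deeper in 5 of 6, with medians of 1390 to 2995 against 1223 to 1747 nuclear UMIs. At 200 to 1000 the poor barcodes were deeper in 4 of 4 libraries (medians of 380.5 to 736 against 308 to 637), so depth was equal between the arms after thinning alone. The depth bands were added after the data had been seen.

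The change with depth was tested directly. An interaction of arm with depth band (200 to 1000 against over 1000 nuclear UMIs, Mlh3 2, 4, 5 and 6) called 563 genes whose rich over poor ratio was higher in the deep band (3.73% of 15085) and 1676 where it was lower (11.1%). The median interaction over all genes was -0.52 on the log2 scale, and the fit was not repeated without TMM factors. Each library and band was a block of its own, so the bands of a library were not paired. Sizes shrank along with calls. The genes called higher over all barcodes had a median log2 fold change of 1.36 there, 1.67 over 1000 nuclear UMIs, 0.71 at 1000 to 2500 and 0.35 at 200 to 1000. For the genes called lower, the medians were -0.83, -1.38, -0.75 and -0.20. These genes were chosen on an overlapping set of barcodes, so their direction in the bands is a description. The main groups below are therefore given over all barcodes and at 200 to 1000 nuclear UMIs, the shallow band.

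The genes described first are among the 12 in each direction with the smallest adjusted p, the same sign in all 6 libraries and at least 20 CPM in either arm. Such a rule favours genes whose arms do not overlap. The share of all tested genes without overlap was not counted, so a lack of overlap is a description here and below. Ahnak, a very large scaffold protein, had a lowest, median and highest value of 29.2, 89.6 and 148 CPM over the rich barcodes of the 6 libraries and of 8.07, 24.3 and 35.5 CPM over the poor ones (log2 fold change 2.23 ± 0.25 SE, adjusted p = 6.997e-14). It was higher in 6 of 6 libraries, although the ranges overlapped. In the shallow band it was at 0.82 ± 0.32 with an adjusted p of 0.85, so it was not called there.

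All 10 Sertoli markers tested were higher over all barcodes, where 15.3% of all genes were, with a median log2 fold change of 1.52, against -0.03 for all genes tested. They took 0.318% to 0.802% of the nuclear UMIs of the rich barcodes (median 0.405%) and 0.0529% to 0.304% of those of the poor ones (median 0.203%), without overlap between the arms. Wfdc10, a secreted protease-inhibitor-like protein on the Sertoli list, ran from 117 to 219 CPM in the rich and from 15.1 to 84.8 CPM in the poor barcodes (2.04 ± 0.22). Clu, the abundant secreted chaperone clusterin, ran from 1576 to 3815 CPM against 182 to 1841 CPM (1.51 ± 0.25), with the rich barcodes of Mlh3 3 highest. At 200 to 1000 nuclear UMIs the list's median was 0.66, with 10 of 10 above 0 and 0 of 10 called, and thinned to 200 UMIs it was 0.88. All 10 were called whichever single library was left out.

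Leydig cells make testosterone in the space between the tubules, and all 10 of their tested markers were higher too, with a median of 0.89. Insl3, their insulin-like hormone, had a lowest, median and highest value of 151, 1634 and 2811 CPM in the rich and 127, 506 and 1524 CPM in the poor barcodes (1.00 ± 0.23, adjusted p = 0.00032). It was higher in 6 of 6 libraries, with wide overlap. Star, which brings cholesterol into mitochondria, was higher in 5 of 6 (1.08 ± 0.21), as was Cyp17a1, an androgen-synthesis enzyme (0.88 ± 0.23). In both cases Mlh3 2 was the exception. Ptgds, a prostaglandin synthase, was at 0.90 ± 0.24 over all barcodes and at -0.12 in the shallow band. For the whole list the median was -0.05 at 200 to 1000 nuclear UMIs, with 5 of 10 above 0, so no common direction was seen between shallow barcodes. Without Mlh3 6, 3 of the 10 Leydig markers were still called over all barcodes, and without Mlh3 3, 6. Among all genes, 1262 of 14871 and 1692 of 15369 were higher in those fits.

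Macrophage and telocyte markers, the latter from stromal cells with long processes, showed the same dependence. Of the macrophage list, 8 of 11 tested were higher (median 1.19), and of the telocyte list 7 of 9 (median 1.43), against 15.3% of all genes. Mrc1, the mannose receptor of macrophages, had 58.3 to 188 CPM in the rich and 7.24 to 77.8 CPM in the poor barcodes, yet was higher in only 4 of 6 libraries (1.93 ± 0.24). Col1a2, a collagen chain, had 52.2 to 123 CPM against 14.1 to 37.5 CPM and did not overlap (1.75 ± 0.25). In the shallow band the medians were 0.10 for macrophage and -0.30 for telocyte markers. Over all barcodes without Mlh3 6, where 1262 of 14871 genes were higher, 3 macrophage and 5 telocyte markers were called. Peritubular myoid markers counted 2 of 5 higher, T lymphocyte markers 2 of 6 and endothelial markers 0 of 4, and 0 of these were lower, counts too small to read against the 15.3% and 13.9% of all genes. Over 1000 nuclear UMIs, where 14.1% of all genes were higher, 10 of 10 Sertoli, 9 of 10 Leydig, 7 of 9 telocyte and 2 of 11 macrophage markers were higher, and 1 macrophage marker was lower. Without Mlh3 3, where 9.28% of all genes were higher, these were 10 of 10, 7 of 10, 7 of 9 and 2 of 10.

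**Figure D3:**
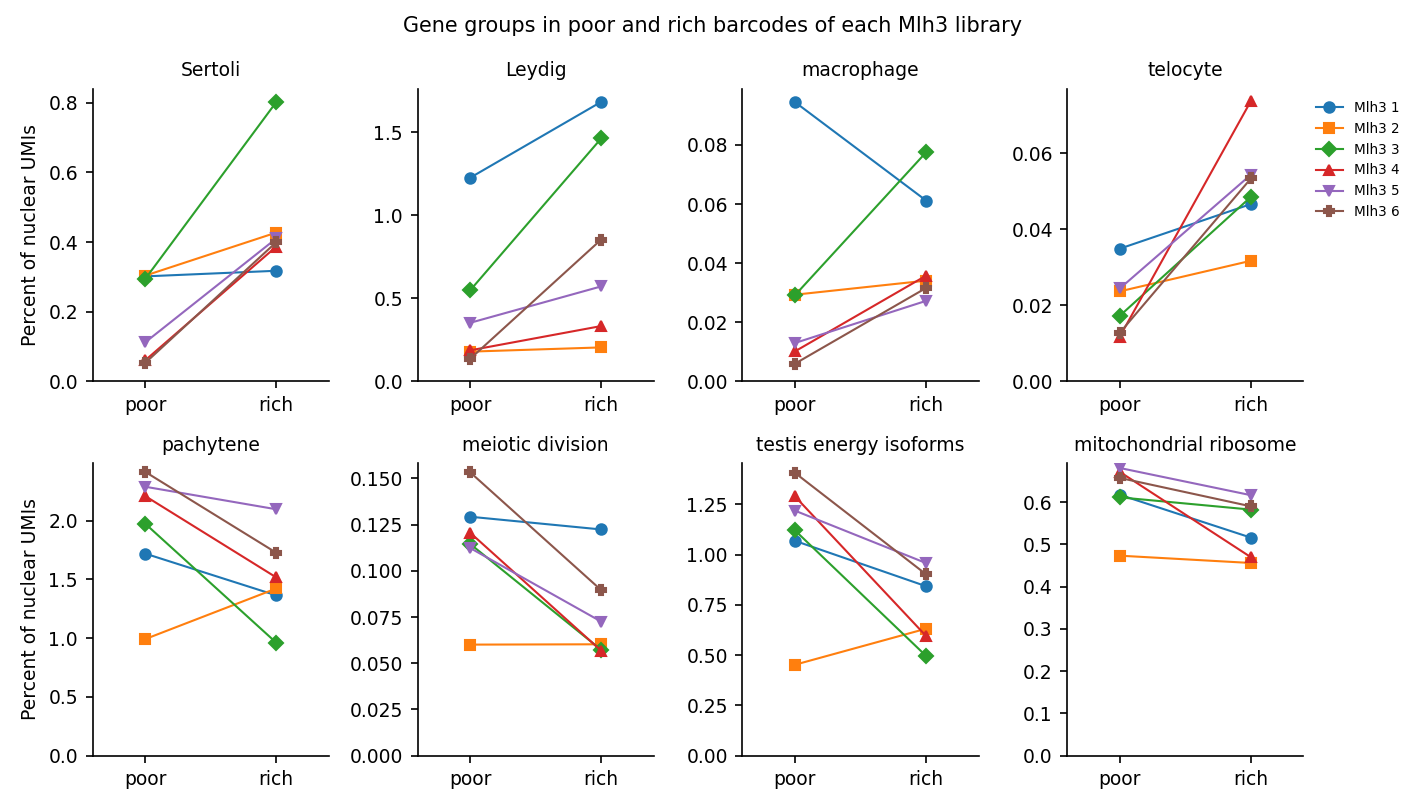
Summed share of nuclear UMIs (percent) taken by 8 gene groups in the poor and rich barcodes of each Mlh3 library, with 1 line per library and all axes from 0. Sertoli, Leydig and telocyte markers lie higher in the rich barcodes of 6 of 6 libraries, and the pachytene, meiotic division and testis energy groups lie lower in 5 of 6, with Mlh3 2 the exception.

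Germ cell genes of late meiosis went the other way. Of 12 pachytene markers tested, 0 were higher and 9 lower over all barcodes, against 15.3% and 13.9% of all genes, with a median of -0.69. Piwil1, the partner of pachytene piRNAs, had a lowest, median and highest value of 379, 748 and 1075 CPM in the rich and 446, 922 and 1278 CPM in the poor barcodes. It was lower in 6 of 6 libraries, but the ranges overlapped almost entirely (-0.63 ± 0.22, adjusted p = 0.02). Mael, another piRNA factor, had 308 to 670 CPM against 336 to 1164 CPM and was lower in 5 of 6 (-1.07 ± 0.22). As a group the markers took 0.961% to 2.10% of the nuclear UMIs of the rich barcodes and 0.992% to 2.42% of the poor ones. The ranges of the summed share thus overlapped widely. The count fell as single libraries were left out, with 3 markers lower without Mlh3 3 or Mlh3 6, 4 without Mlh3 4 and 5 without Mlh3 5. Lower calls over all genes fell too, to 984 of 15369, 828 of 14871, 1018 of 15382 and 1103 of 15338 in the same order. In the shallow band the median was 0.04, with Piwil1 at 0.13, and 0 of 12 were called. At 1000 to 2500 nuclear UMIs edgeR called Mael lower (-1.05 ± 0.27), while Piwil1 was not called.

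Genes of the meiotic divisions were lower in 6 of 8 tested, where 13.9% of all genes were, with none higher and a median of -0.93. Ccna1, the cyclin of the first division, ran from 31.7 to 233 CPM in the rich and from 60.1 to 208 CPM in the poor barcodes, and was lower in 5 of 6 libraries (-1.21 ± 0.22). Ccnb1, a mitotic cyclin, followed the same libraries (-1.20 ± 0.26). For both genes Mlh3 1 was the exception, where the rich arm held only 34311 nuclear UMIs. Between 5 and 7 of the 8 were lower as single libraries were left out. The lower genes among all tested then ran from 828 of 14871 (without Mlh3 6) to 3255 of 15726 (without Mlh3 2). In the shallow band the list's median was -0.33, with 0 of 8 called. Spermatogonial markers counted 2 of 11 higher, near the 15.3% of all genes, among them Kit, the receptor of differentiating spermatogonia (1.62 ± 0.25, higher in 6 of 6). Kit was also counted inside the Leydig-like class, at means of 261.9 CPM in the rich and 181.9 CPM in the poor barcodes. The germ cell gene Ldhc was counted there too, at means of 2361 and 2422 CPM, with Mlh3 1 far above the other libraries in both. Germ cell transcripts were thus present in Leydig-like barcodes, and whether Kit came from those cells or from free RNA was not tested. Leptotene and zygotene markers counted 2 higher and 1 lower of 10. Synaptonemal complex and meiotic cohesin genes counted 2 lower of 11.

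Of the lower genes picked by the same rule, Prss21 and Sept12 are described. Prss21, the sperm-surface serine protease testisin, had 0, 40.7 and 58.5 CPM as its lowest, median and highest value in the rich barcodes and 67.2, 105 and 140 CPM in the poor ones, so the groups did not overlap (-1.61 ± 0.23, adjusted p = 3.913e-09). Sept12, a septin of the sperm tail, did not overlap either, with 207 to 473 CPM against 559 to 1393 CPM (-1.32 ± 0.22). Prss21 was at -0.59 ± 0.33 and Sept12 at -0.35 ± 0.28 in the shallow band, and neither was called. At 1000 to 2500 nuclear UMIs both were called lower by edgeR (-1.75 ± 0.47 and -1.04 ± 0.28).

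Nuclear-encoded mitochondrial genes are read here against the 15.3% of all genes that were higher and the 13.9% that were lower. Of 75 mitochondrial ribosomal protein genes tested, 0 were higher and 19 lower (median -0.31), and they took a smaller share of nuclear UMIs in the rich barcodes of 6 of 6 libraries, 0.456% to 0.616% against 0.473% to 0.681%. Mrpl39 was among the lower ones, with 79.3 to 175 CPM against 91.9 to 260 CPM (-0.94 ± 0.21). Nuclear-encoded complex I subunits counted 2 higher and 7 lower of 37 (median -0.36), and complexes II to V with cytochrome c 4 higher and 6 lower of 40 (median -0.31). The 19 lower ribosomal genes became 7 without TMM factors, 9 by DESeq2, and 3, 5, 5, 7 and 33 without Mlh3 4, 5, 6, 3 and 2. Lower genes among all tested numbered 1124 of 15869, 1094 of 13100, 1018 of 15382, 1103 of 15338, 828 of 14871, 984 of 15369 and 3255 of 15726 in the same order. The count over all genes thus moved too. Ndufv2, a core complex I subunit, was lower in 5 of 6 libraries (-0.61 ± 0.21, adjusted p = 0.02), and Cox4i1, of complex IV, was at -0.39 ± 0.22 with an adjusted p of 0.18.

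Genes that copy and transcribe mitochondrial DNA counted 0 higher and 1 lower of 16 tested. Import and outer membrane genes counted 3 higher and 4 lower of 20, against 15.3% and 13.9% of all genes. The lower ones included Vdac2, the outer membrane channel (-0.97 ± 0.22, lower in 6 of 6), and Tomm22, an import receptor (-0.88 ± 0.22, lower in 5 of 6). Mitophagy and autophagy genes counted 0 higher and 3 lower of 17, with a median of -0.09 that turned to 0.12 without TMM factors and to 0.06 by DESeq2. Testis-specific energy isoforms, which germ cells use in place of the somatic enzymes, were lower in 9 of 10 tested, with a median of -0.77. Without Mlh3 6, 4 and 3 they were lower in 2, 3 and 4 of 10, where 828 of 14871, 1018 of 15382 and 984 of 15369 of all genes were lower. Pdha2, of testis pyruvate dehydrogenase, had 166 to 281 CPM in the rich and 219 to 465 CPM in the poor barcodes (-0.96 ± 0.21, lower in 6 of 6). Ldhc, the testis lactate dehydrogenase, was at -0.80 ± 0.26 over all barcodes and at -0.11 ± 0.35 in the shallow band. None of these lists had a called gene in the shallow band, and their medians there lay between -0.17 and 0.07. At 1000 to 2500 nuclear UMIs, where 0.557% of all genes were lower, edgeR called Tomm22 (-1.18 ± 0.29), Vdac2 (-1.10 ± 0.28) and Mrpl39 (-1.33 ± 0.36) lower. Of the other genes described for these lists, Ndufv2, Pdha2 and Ldhc were not called at that depth.

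Genes often read as signs of damage were mixed. Against the same 15.3% and 13.9% of all genes, intrinsic apoptosis genes counted 6 higher and 2 lower of 23 (median 0.51). Their summed share of nuclear UMIs went the other way, at 0.0835% to 0.125% in the rich and 0.112% to 0.160% in the poor barcodes, lower in 6 of 6 libraries. Diablo, at means of 579.9 and 940.2 CPM, made up most of that sum. Xiap, an X-linked caspase inhibitor, was among the higher (1.33 ± 0.31, higher in 5 of 6), and Diablo, which blocks such inhibitors after release from mitochondria, was among the lower (-0.97 ± 0.22, lower in 6 of 6). Targets of p53 counted 5 higher and 1 lower of 15 (median 0.78). Cdkn1a, the cell cycle inhibitor p21, did not overlap between the arms, with 19.4 to 66.2 CPM against 2.57 to 17.7 CPM (1.84 ± 0.33). Immediate early genes, which respond to dissociation, counted 4 higher and 0 lower of 18, and heat shock genes 1 and 1 of 15, with a median of -0.11 that was 0.11 without TMM factors and 0.06 by DESeq2. The summed heat shock share was nonetheless higher in the rich barcodes of 6 of 6 libraries, at 1.13% to 1.37% against 1.03% to 1.13%. Its members were split. Hsp90aa1, the most abundant, had means of 3682 and 3422 CPM (-0.13 ± 0.24) and was higher in 3 of 6 libraries, and Hspa2 (-0.53 ± 0.22) and Hspa4 (-0.38 ± 0.21) had lower CPM in 5 of 6. The endoplasmic reticulum chaperones Hspa5 (means of 1908 and 1228 CPM, 0.45 ± 0.23) and Hsp90b1 (2750 and 2169 CPM, 0.12 ± 0.23) had higher CPM in 6 of 6 libraries, and none of these 5 genes was called. Without Mlh3 3, 4 or 6, 1 of the p53 targets was still higher, and 2 to 3 of the apoptosis genes. Higher calls over all genes were 1692 of 15369, 1778 of 15382 and 1262 of 14871 in those fits. In the shallow band the medians were -0.07 for apoptosis, 0.02 for p53 targets, -0.34 for immediate early and 0.26 for heat shock genes. At 1000 to 2500 nuclear UMIs edgeR called Diablo lower (-1.015 ± 0.27), while Xiap and Cdkn1a were not called.

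Among metabolic and housekeeping lists, where 15.3% and 13.9% again hold for all genes, glycolysis genes counted 6 higher and 4 lower of 18. Antioxidant genes counted 7 higher and 4 lower of 18, with Sod2, the mitochondrial superoxide dismutase, lower in 6 of 6 libraries (-0.88 ± 0.21). Cytosolic ribosomal protein genes counted 3 higher and 4 lower of 88, under the shares among all genes, with a median of -0.19 that was 0.02 without TMM factors. Of the study's own list of technical genes, which was chosen on these samples and is no independent evidence of direction, 1 of 4 was higher. Of the ribosomal and small nuclear RNA list, 0 of 5 passed the test. Long noncoding RNAs kept in the nucleus counted 4 higher and 1 lower of 12. Malat1, the most abundant of them, had a lowest, median and highest value of 7957, 20520 and 29660 CPM in the rich and 2985, 5838 and 15010 CPM in the poor barcodes (1.49 ± 0.30, higher in 6 of 6). In the shallow band it was at 0.65 ± 0.39, and in Mlh3 2 and 5 the arms were nearly equal there. At 1000 to 2500 nuclear UMIs edgeR called Malat1 higher (1.11 ± 0.30).

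**Figure D4:**
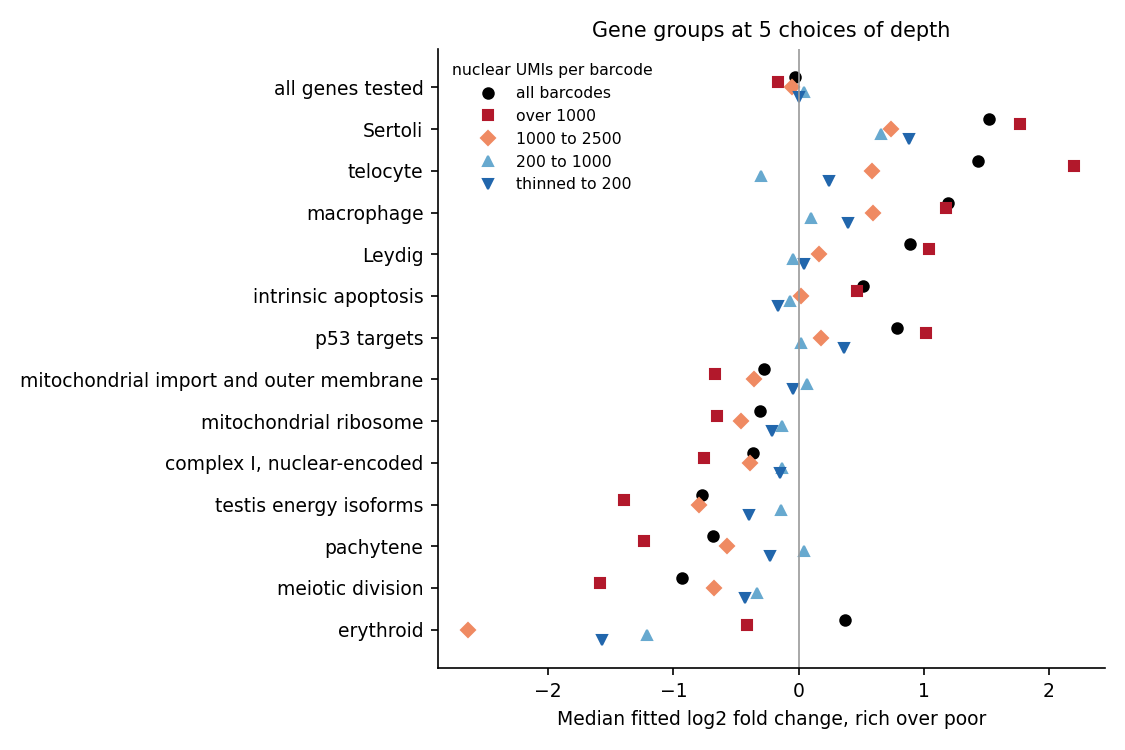
Median fitted log2 fold change, rich over poor barcodes, of 13 gene groups and of all genes tested at 5 choices of depth, given as nuclear UMIs per barcode. The Sertoli median stays between 0.66 and 1.77 at every depth, the Leydig and pachytene medians lie at -0.05 and 0.04 at 200 to 1000 nuclear UMIs, and the erythroid median is above 0 for all barcodes and below 0 at the other 4 choices.

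Hemoglobin RNA, a mark of blood, had no clear direction over all barcodes and was lower in the rich barcodes at 1000 to 2500 nuclear UMIs. Over all barcodes Hbb-bs was higher (0.69 ± 0.25, adjusted p = 0.03) in 4 of 6 libraries and Hba-a1 was at 0.32 ± 0.32 with an adjusted p of 0.47. The levels ran from 23.8 to 338 CPM in the rich and from 8.72 to 407 CPM in the poor barcodes for Hbb-bs, with Mlh3 5 and 6 highest in both arms. At 1000 to 2500 nuclear UMIs Hbb-bs was lower at -2.25 ± 0.42 and Hba-a1 at -3.01 ± 0.57 (adjusted p = 0.001 for each), and thinned to 200 UMIs Hba-a1 was lower at -1.86 ± 0.38 (adjusted p = 0.005). Hemoglobin genes have near-identical copies that can share reads, so single members are uncertain. The erythroid list counted 1 of 6 higher over all barcodes, near the 15.3% of all genes, and 4 of 5 lower at 1000 to 2500 nuclear UMIs, where 0.557% of all genes were lower.

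The genes called in the shallow band or after thinning were few, and they are named here with their values already known. At 200 to 1000 nuclear UMIs Gm10800 was higher (2.19 ± 0.35, adjusted p = 4.364e-06), as was Flrt1, a cell-surface adhesion protein (2.37 ± 0.54, adjusted p = 0.04), and Gm12295 was lower. Thinned to 200 UMIs, Gm10800 was again higher (2.67 ± 0.41) beside the lower Hba-a1. Over all barcodes Gm10800 had the smallest p of any gene (3.28 ± 0.25), with 0, 381, 82.6, 502, 179 and 24.7 CPM in the rich barcodes of Mlh3 1 to 6 and 6.37, 46.0, 11.7, 28.7, 19.5 and 1.45 CPM in the poor ones. It was higher in 5 of 6 libraries. Gm12295 was counted in 1 library alone, at 13.3 CPM in the poor barcodes of Mlh3 4, and is not comparable.

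X-linked genes stood out by number. Of 563 X-linked genes tested, 265 were higher in the rich barcodes (47.1%) and 0 lower, with a median of 1.19, while on the autosomes 11.7% to 18.1% of the genes were higher. Hmgn5, an X-linked nucleosome-binding protein, had 87.4 to 351 CPM in the rich and 20.5 to 124 CPM in the poor barcodes and was higher in 6 of 6 libraries (1.90 ± 0.21). Of 7 Y-linked genes, 3 were higher. Spread over the transcriptome, X-linked genes took 1.49%, 1.44%, 2.33%, 1.41%, 1.22% and 1.26% of the nuclear UMIs of the rich barcodes of Mlh3 1 to 6, against 1.30%, 1.63%, 0.870%, 0.325%, 0.506% and 0.259% in the poor barcodes. The share was higher in 5 of 6 libraries, all but Mlh3 2, with means of 1.53% ± 0.405 and 0.815% ± 0.557 (SD, n = 6). The difference did not pass the exact two-sided sign-flip permutation test (p = 0.0938, n = 6).

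The difference in X-linked share went with depth as well. The exact p-values below are unadjusted over the bands, and Mlh3 2 and 3, which may be 1 mouse, count as separate pairs. Over 1000 nuclear UMIs the X-linked share was 2.02% ± 0.372 in the rich and 0.771% ± 0.570 in the poor barcodes, higher in 6 of 6 libraries (exact p = 0.0312, the smallest that 6 pairs allow), and 242 of 520 X-linked genes were higher. At 1000 to 2500 it was 1.91% ± 0.458 and 1.36% ± 0.680, higher in 4 of 6 (exact p = 0.125), with 3 of 425 genes called. At 200 to 1000 it was 1.15% ± 0.111 and 1.15% ± 0.476 in 4 libraries, higher in 2 of 4 (exact p = 1, smallest possible 0.125), with 0 of 373 genes called and a median of 0.20. Of 502 X-linked genes in the interaction of arm with depth, 79 were called higher in the deep band and 1 lower. Their median interaction was 1.44, against -0.52 for all genes. The mean X-linked share of the shallow poor barcodes was that of the shallow rich ones, and the lowest shares were those of the deep poor barcodes of Mlh3 4, 5 and 6.

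**Figure D5:**
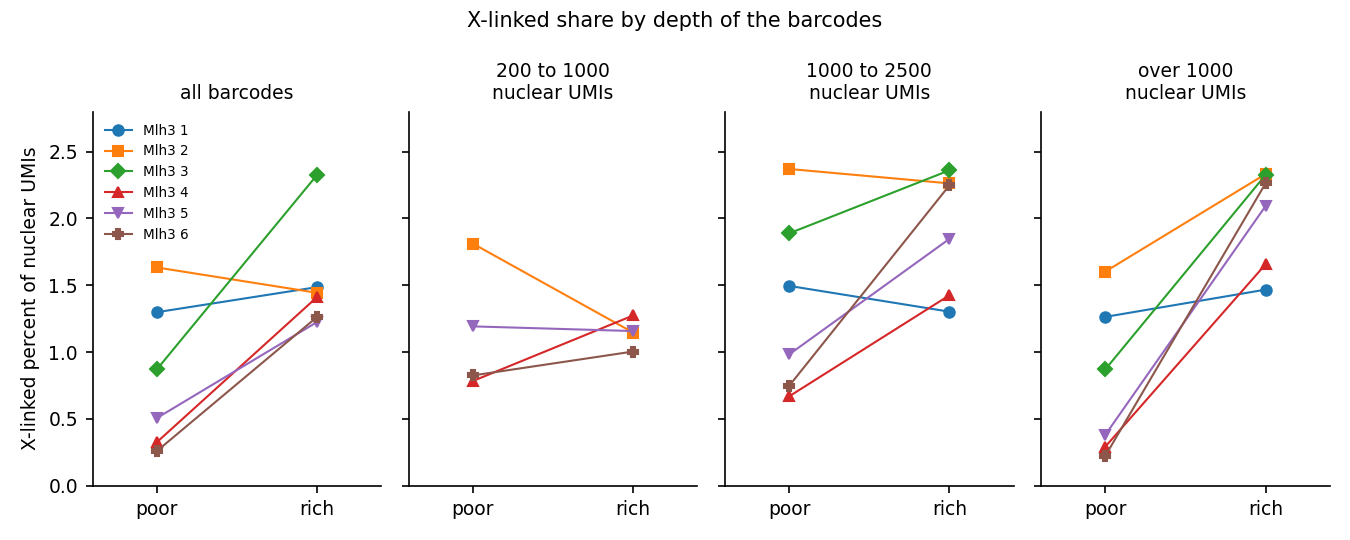
X-linked percent of nuclear UMIs in the poor and rich barcodes of each Mlh3 library, over all barcodes and in 3 bands of nuclear UMIs per barcode (arms of at least 10 barcodes). Over 1000 nuclear UMIs all 6 lines rise, while at 200 to 1000 the means of both arms lie at 1.15% and 2 of 4 lines fall.

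The called genes also differed in kind. Of the higher genes with an annotated type, 96.3% were protein-coding, of the lower 89.4% and of all tested 86.5%. The median length of the longest transcript was 3730 nucleotides for the higher, 2463 for the lower and 3035 for all genes tested.

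To ask which cells the rich barcodes resembled, all Mlh3 barcodes were clustered on nuclear genes into 19 clusters, and clusters were named from their markers where these allowed it. Nuclear copies of mitochondrial genes were kept in the clustering. Most rich barcodes could not be named. Of 6180, 5402 fell in unnamed clusters, against 1692 of 3438 poor barcodes, and per library the unnamed share was 74.0% ± 36.7 of the rich and 44.2% ± 21.0 of the poor barcodes (higher in 5 of 6, exact p = 0.0625, adjusted 0.125, n = 6). The largest unnamed cluster, of 1548 barcodes and 89.3% rich, was led by hemoglobin genes, but only 16 genes in it reached 2-fold and its median was 232 nuclear UMIs. At Leiden resolution 2 a cluster of 674 barcodes, 595 of them rich, with a median of 219 nuclear UMIs, met the rule for an erythroid-like name. Another, of 710 barcodes of which 653 were rich, came almost wholly (98.5%) from Mlh3 3 and carried Sertoli and Leydig markers together. Gm13340, close in sequence to mt-Co1, was among the leading genes of an unnamed cluster of 1453 barcodes, 1300 of them rich. Gm13341, close to mt-Co2, was among those of an unnamed cluster of 1046 barcodes, 871 of them rich. Such clusters cannot be taken as independent of the mitochondrial RNA that chose the members.

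Of the 6180 rich barcodes 0 were meiotic division-like. The class was found over 1000 nuclear UMIs alone in either arm. The 961 rich barcodes of that depth had library medians of 1223 to 1747 nuclear UMIs, and 662 of them came from Mlh3 3. They were far shallower than the class, so a count of 0 cannot tell a lower share from lower depth. That class, of 138 barcodes with a median of 14260 nuclear UMIs, held 3.97% ± 3.30 of the poor barcodes. At Leiden resolution 2 it held 337 barcodes, 2 of them rich, with a median of 6150 nuclear UMIs. Pachytene-like barcodes, with a median of 5218 nuclear UMIs, were 0.268% ± 0.291 of the rich and 13.6% ± 11.1 of the poor, and spermatogonia-like ones 1.42% ± 1.48 and 9.36% ± 7.04. All 3 were lower in the rich barcodes of 6 of 6 libraries (exact p = 0.0312 each, the smallest possible, adjusted 0.0833 over 8 classes, n = 6). Leydig-like barcodes were 19.3% ± 39.6 and 20.4% ± 34.1 (exact p = 0.656), and Sertoli-like ones 3.98% ± 3.29 and 6.79% ± 7.84 (exact p = 0.375, n = 6). Mlh3 1 and 3 had 0 Sertoli-like barcodes in both arms, so only Mlh3 2, 4, 5 and 6 bear on the Sertoli-like test. In Mlh3 3 the cluster with Sertoli and Leydig markers together stayed unnamed. In Mlh3 1 all 26 rich barcodes and 89.9% of the poor were Leydig-like, and without it the Leydig-like shares were 3.14% ± 2.20 and 6.54% ± 2.45 (exact p = 0.125, n = 5, smallest possible 0.0625). The name is uncertain in Mlh3 1. Its largest cluster, found there alone, had a mean log2 fold of 1.58 on Leydig markers and was led by Gapdh, Actg1 and Rps4x. The Leydig-like cluster led by Insl3 had 3.73. The spermatogonia-like cluster scored nearly as high on leptotene and zygotene markers (mean log2 fold 1.43 against 1.52), and at resolution 2 these barcodes fell apart into a leptotene/zygotene-like cluster of 226 and a spermatogonia-like one of 97. Pachytene-like and meiotic division-like clusters were the deepest, while the spermatogonia-like one had a median of 726 nuclear UMIs. The shares depended on the depth band. Over 1000 nuclear UMIs, pachytene-like barcodes were 1.15% of 961 rich and 24.7% of 1670 poor barcodes, lower in 6 of 6 libraries, and meiotic division-like ones 0% and 8.26%. At 200 to 1000, meiotic division-like barcodes were 0 in both arms and pachytene-like ones 0% and 0.232%, so no lower share of either could be seen there. In that band spermatogonia-like barcodes were 1.11% of 4770 rich and 10.97% of 1723 poor ones, while over 1000 they were 2.39% and 4.85% and lower in 4 of 6 libraries, all but Mlh3 4 and 6. Depth still differed between the arms within the bands.

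Inside the Leydig-like class, few genes were called. Over Mlh3 1, 4, 5 and 6, 5 genes were higher (0.0496% of 10083) and 22 lower (0.218%). The higher ones were Nisch, an imidazoline receptor-related protein (1.98 ± 0.42), the imprinted noncoding RNA Kcnq1ot1 (1.80 ± 0.39), 2810055G20Rik, Cdk12, a transcription kinase, and Mns1, a meiotic marker. Among the lower were the redox proteins Prdx1 (-1.50 ± 0.33), Gsta4 (-1.71 ± 0.38), Txn1 (-1.63 ± 0.37) and Gstm2 (-1.47 ± 0.33) and the lipid carrier Fabp3 (-1.54 ± 0.35). Of 10 Leydig markers, 0 were higher and 1 lower, Aldh1a1, with a median of -0.71. The rich members sat mostly in a cluster led by Malat1, Snhg11 and Neat1 (169 of 282) and the poor ones most often in a cluster found in Mlh3 1 alone (282 of 638). The calls rested on single libraries, with 0 left without Mlh3 5, 1 without Mlh3 4, 32 without Mlh3 6 and 239 without Mlh3 1.

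Inside the Sertoli-like class, over Mlh3 4, 5 and 6, 0 genes were higher and 2 lower of 7454 (0.0268%). These were Snhg11, a small nucleolar RNA host gene (-3.91 ± 0.68, adjusted p = 7.338e-05), and the noncoding RNA Neat1 (-2.03 ± 0.44, adjusted p = 0.02), and leaving out any 1 library left at most 1 gene called. Snhg11 stood at 969 CPM in the poor barcodes of Mlh3 4 against 16.8 and 52.4 CPM in those of Mlh3 5 and 6. Named classes held few rich barcodes, so these fits had little depth.

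Finally, the contrast in Mlh3 was set against the same contrast in wild-type testis. Of the WT libraries of mechanical dissociation, WT 4 alone had enough rich barcodes, 56 of them with 21711 nuclear UMIs over 5927 genes. An edgeR fit with an interaction term called the rich over poor difference higher in Mlh3 for 29 of 17420 genes (0.166%) and lower for 0 (1034 and 47 at an unadjusted p under 0.05), on the assumption that WT 4 varies as the Mlh3 libraries do. With 1 library the WT side has no replicate spread of its own, so these calls compare Mlh3 with that library and cannot show whether strains differ. The median interaction over all genes was 3.79 on the log2 scale. The count was 0 without TMM factors, 9 without Mlh3 4 or Mlh3 6, 13 without Mlh3 5, 44 without Mlh3 1 and 69 without Mlh3 2, and no gene is singled out from it.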

How the data were processed

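Drop-seq libraries of 6 Mlh3 testes were analysed, with 19 other libraries as reference. Per the labels and the study's methods, the authors aligned reads to mm10 with STAR 2.5.3a in the Drop-seq pipeline and deposited raw UMI counts for each gene in each barcode, between 450745 and 6340116 per Mlh3 library. Whether counting used strand is not given in the sources used here, so Kcnq1ot1 and Kcnq1 cannot be told apart. Members, gene lists and tests were chosen with earlier results of these data known. Another mutant strain was not analysed here, and some genes that the naming rule picked are not reported here.

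Counts of nuclear genes were summed per library and arm and tested with edgeR 4.0.16 (quasi-likelihood, TMM, genes with at least 10 counts, Benjamini-Hochberg at 0.05), with the library as block, because both arms come from the same library. DESeq2 1.42.0 was an alternative. P-values measure the spread between libraries. Mlh3 2 and 3 share an age, and whether they come from 1 mouse is not given. The exact sign-flip tests count them as separate pairs. With 5 pairs the smallest possible p of such a test is 0.0625. In simulated counts of 15517 genes for the comparison over all barcodes, 200 genes were changed, far fewer than were called in the data. They were drawn from genes with high counts. The procedure recovered 72% of those changed 2-fold and 100% of those changed 4-fold. Recovery of genes with low counts was not measured. Nuclear symbols close to mitochondrial genes (at least 90% identity over 100 bases) share reads with them. They were removed in an alternative of the comparison over all barcodes, where 2550 genes were higher and 1964 lower of 15864. All other fits, the shares and the clustering kept them. Shares were compared by exact two-sided sign-flip permutation.

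Barcodes were clustered with scanpy 1.11.5 on nuclear genes (40 components, 20 neighbours, Leiden resolution 1). A cluster was named from its list's mean log2 fold, with at least 3 markers and 50 genes at 2-fold, thresholds set after the clusters were seen. A gap of 0.25 in mean log2 fold to the second list was set as well. The cluster of Mlh3 3 with Sertoli (1.995) and Leydig (1.883) markers fell under it and stayed unnamed. The spermatogonia-like cluster was named although its gap to leptotene and zygotene markers was smaller too (1.523 against 1.431). No doublet caller was run and doublets were not removed. At most 12 barcode sequences were shared by any pair of Mlh3 libraries. Chromosomes and lengths came from GENCODE vM21 (GRCm38), where 26843 of 29244 symbols matched directly and 884 by synonym. Named genes were the 12 with the smallest adjusted p in each direction, of which some are described, members of the lists (at most 6 per list by CPM, all Leydig, erythroid and pachytene markers), and the 5 with the smallest p in the other fits. Genes called in the depth bands were named after their values were seen.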

Additional observations from a re-analysis of the deposited data

Results flagged for a closer look

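Among 112 sets of 6 Mlh3 values, 25 held a library far from the others by Dixon's test at 95%, which chance does in about 1 in 20 sets. Of these, 9 were in Mlh3 2, 8 in Mlh3 1 and 4 in Mlh3 3. Mlh3 1, where the Leydig-like name is uncertain, had 100% Leydig-like rich barcodes (others at most 6.11%) and 89.9% Leydig-like poor ones (at most 8.73%). Its unnamed shares were 0% and 3.73% (others at least 83.2% and 45.2%). It also had the highest Cyp17a1 (2135 CPM) and macrophage share (0.0945% of nuclear UMIs) in the poor barcodes, and the highest Ccna1 (233 CPM) and Ccnb1 (117 CPM) in the rich ones.

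In the poor barcodes of Mlh3 2, Malat1 (15010 CPM), Kcnq1ot1 (389 CPM), Sept12 (1393 CPM) and Flrt1 (88.4 CPM) were high, as was the Sertoli-like share (21.3%). There Ldhc (1937 CPM, others at least 5833), Mrpl39 (91.9 CPM), the testis energy isoforms (0.452% of nuclear UMIs) and the mitochondrial ribosomal genes (0.473%) were low. Mlh3 3 had the deepest poor barcodes (median 2995 nuclear UMIs), and in its rich barcodes the highest X-linked share (2.33%), Sertoli marker share (0.802%) and Clu (3815 CPM). Mlh3 4 had the highest median mitochondrial share of the rich barcodes (28.7%) and Gm12295 at 13.3 CPM in the poor ones against 0 elsewhere. Mlh3 5 had Hba-a1 at 127 CPM and the erythroid list at 0.0737% in the poor barcodes.

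By an interaction term, the rich over poor difference differed between the depth bands for 2239 genes, with a median of -0.52 over all genes. The same kind of term called 29 genes between Mlh3 and WT 4, which is 1 library with no replicate spread, and 0 without TMM factors, so it shows no difference between strains.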

How the results depend on the processing

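The depth bands, thinning and removals of barcodes or gene copies were chosen after seeing the data. The count of 4641 called genes was moved by more than 1.5 times with a mitochondrial threshold of 5% (2737) or 20% (2317), without Mlh3 1 and 3 together (2552), and by depth: 3 at 200 to 1000 nuclear UMIs, 99 at 1000 to 2500, 2 thinned to 200. Leaving out single libraries gave 2090 (without Mlh3 6) to 6266 (without Mlh3 2), with 2676 without Mlh3 3 and 2796 without Mlh3 4. With no replicate block, which drops the pairing of the arms, it was 59. At 200 or more nuclear UMIs per barcode, with HiSeq libraries alone, with other filters, without TMM factors, by DESeq2, with Mlh3 2 and 3 summed, and without the mitochondrial gene copies or the hemoglobin-led cluster, it stayed within 1.5 times.

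The interaction with WT 4 called 0 genes without TMM factors, 72 with HiSeq libraries and 902 with all WT and Cul4a libraries that had 10 rich barcodes, and 9 to 69 as single libraries were left out. Leydig-like calls were 89 at Leiden resolution 2, 282 without the clusters mostly of Mlh3 1 and 0 to 239 as libraries were left out. Sertoli-like calls were 1 at resolution 2 and 0 to 1 as libraries were left out. The difference in X-linked share was -0.00783 percentage points at 200 to 1000 nuclear UMIs and 1.25 over 1000. There the exact sign-flip p was 0.0312, unadjusted over the bands. The macrophage-like share differed by -0.376 to 0.0101 percentage points as libraries were left out, turning sign without Mlh3 1.

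Of 33 described genes called over all barcodes, 30 were not called at 200 to 1000 nuclear UMIs, and of the 32 of them tested when thinned, 31 were not. At 1000 to 2500, 9 of 32 were still called, and over 1000, 31 of 32. Signs turned as follows (log2). Ptgds was at -0.12 at 200 to 1000 and -0.0044 when thinned, and Piwil1 at 0.13 at 200 to 1000. Hbb-bs was at -1.06 at 200 to 1000, -2.25 at 1000 to 2500, -0.18 over 1000, -0.63 over 1000 without Mlh3 3 and -1.34 when thinned. Hba-a1 was at -1.39, -3.01, -0.41, -0.98 and -1.86 in the same order, at -0.29 with the 20% threshold and at -0.0303 with no replicate block. Gm12295 was at 5.42 with the 5% threshold. Causes were not tested. Depth limits the shallow bands, where a missed call does not show that the arms were equal.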
